A study of Mus musculus with 18 samples.

Results

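The cytosolic DNA sensing pathway was followed through 10 named genes, Tmem173 (now Sting1), Tbk1, Ikbke, Irf3, Trex1, Samhd1, Aim2, Ifi203, Ifi204 and Ifi205, chosen by name as genes of this pathway. All 10 were found among the 55401 identifiers of the gene count table, and 9 of them had reads. Trex1 had none in any library, so 9 genes entered every test.

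The libraries came from mouse embryonic fibroblasts (MEFs), connective tissue cells grown from embryos without head and viscera, in 2 series of 3 groups with 3 libraries each. In the S6K1 series, wild-type (WT) cells carried an empty vector (EV) or constitutive RAS, and cells knocked out (KO) for S6K1 carried RAS. In the S6K1/S6K2 series, a further set of WT cells carried EV or RAS, and double-knockout (DKO) cells lacking both kinases carried RAS. S6K1 and S6K2 (genes Rps6kb1 and Rps6kb2) are ribosomal S6 kinases downstream of mTORC1, and RAS was an activated HRAS delivered by retrovirus to drive oncogene-induced senescence. The S6K1 KO and WT cells were littermates, whereas the DKO embryos and their WT controls came from separate matings. Knockout cells with EV were not analysed here, so the loss of the kinases was measured under RAS only.

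DNA in the cytosol is sensed by cGAS, whose product activates STING at the endoplasmic reticulum. STING recruits the kinase TBK1, with its relative IKKε (gene Ikbke), and TBK1 phosphorylates the transcription factor IRF3, which turns on type I interferon genes. Trex1 and Samhd1 encode nucleic acid and nucleotide hydrolases that limit the pathway, AIM2 assembles an inflammasome on DNA, and Ifi203, Ifi204 and Ifi205 encode interferon-inducible proteins of the same PYHIN family. Cytoplasmic chromatin of senescent cells is a known trigger of this pathway.

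The 4 PYHIN members lay together on mouse chromosome 1, from the start of Aim2 at 173349547 to the end of Ifi205 at 174031755 (RefSeq, GRCm38.p6). Ikbke lay on the same chromosome at chr1:131254600-131279601, Tbk1 on chromosome 10, Irf3 on chromosome 7, Samhd1 on chromosome 2 and Trex1 on chromosome 9. RefSeq promoter windows, 300 bases each with 250 before the start site, were read for 8 of the 10 members, all but Ifi204 and Tmem173. The windows were searched on both strands for a pair of GAAA blocks with any 2 bases between them, the core of the interferon-stimulated response element. It stood in 3.44% of all 32851 windows. Of the members, Ifi203 and Ifi205 held it. Of all 11 PYHIN genes of the cluster with a window, 9 held the interferon element core, and Aim2 and Ifi209 did not hold these letters. In the counts Ifi209 has the identifier named Pyhin1 below, and Ifi211 the identifier named Mnda. The windows of Ifi203 and Ifi205 are printed because they held the core and their RAS response differed by line. Capitals mark the interferon element core, which began 35 bases before the start site in Ifi203 and 134 bases before it in Ifi205. In Ifi205 a second copy, on the opposite strand, began 23 bases after the start.
Ifi203, second start site, chr1:173942443-173942742, minus strand: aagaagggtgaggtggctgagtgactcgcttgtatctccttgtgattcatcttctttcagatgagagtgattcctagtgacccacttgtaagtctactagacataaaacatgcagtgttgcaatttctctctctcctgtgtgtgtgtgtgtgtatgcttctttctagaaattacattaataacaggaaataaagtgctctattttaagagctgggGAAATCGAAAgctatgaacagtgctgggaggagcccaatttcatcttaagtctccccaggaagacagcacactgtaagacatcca
Ifi205, chr1:174031706-174032005, minus strand: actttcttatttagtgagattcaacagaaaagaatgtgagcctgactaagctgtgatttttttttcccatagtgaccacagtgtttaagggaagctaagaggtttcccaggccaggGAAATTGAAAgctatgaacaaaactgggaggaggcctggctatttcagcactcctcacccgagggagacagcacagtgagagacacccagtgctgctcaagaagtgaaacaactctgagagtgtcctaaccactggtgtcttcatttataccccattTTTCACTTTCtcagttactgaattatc
A match of letters is a description of the window and not a measured binding site.

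**Figure D1:**
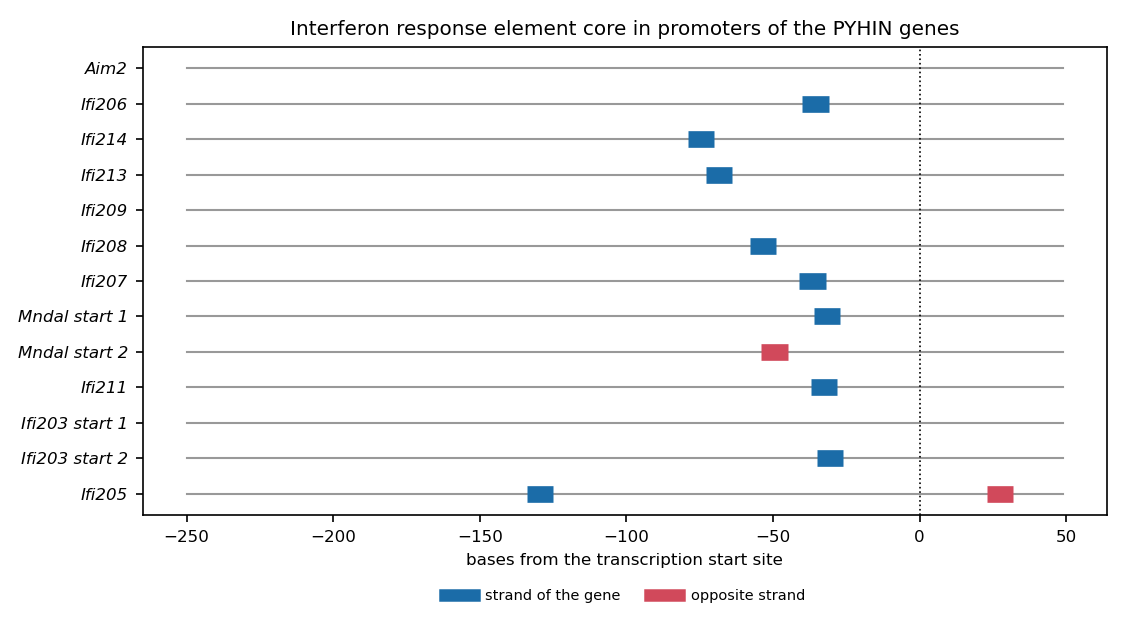
Position of the interferon response element core in the promoter windows of the 11 PYHIN genes (x axis, bases from the start site at 0; 1 line per window, boxes coloured by strand). In Ifi206, Ifi207, Ifi208, Ifi211, Ifi213, Ifi214, Ifi203 and the first Mndal window the core sits on the strand of the gene within 79 bases before the start, whereas in Ifi205 it sits 134 bases before and 23 bases after it.

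Library depth was 8319445 to 14402442 counts. Hras, the gene of the expressed oncogene, rose with RAS by 0.93 ± 0.14 (log2, SE) in the S6K1 series and by 0.75 ± 0.15 in the S6K1/S6K2 series (edgeR adjusted p = 0.0029 and 0.00568). Rps6kb2 fell by 3.18 ± 0.17 in DKO cells. Rps6kb1 transcript remained at a mean of 30.6 counts per 1000000 counts of the scaled library (CPM) in KO and 37.5 CPM in DKO cells. Their WT RAS controls had 69.0 and 80.6 CPM. The log2 fold change in KO cells was -1.17 ± 0.17 (adjusted p = 0.234, and 0.000101 with replicate number as a block). In DKO cells it was -1.11 ± 0.11 (adjusted p = 0.00908). Fibroblast markers were abundant in every library. Markers of macrophages, cells that can accompany MEFs, were also present, and their level differed by line. The sum of 18 macrophage markers was 3487, 2663 and 704 CPM in S6K1 WT EV libraries 1, 2 and 3, was 3987, 3570 and 776 CPM with RAS, and was 919, 718 and 260 CPM in the KO libraries. Among the S6K1/S6K2 libraries it was 1541, 168 and 221 CPM with EV, 1087, 184 and 267 CPM with RAS, and 254, 76.2 and 101 CPM in DKO RAS. Lines 1 and 2 of the first series and line 1 of the second therefore stood above the others. Here a line means an EV and a RAS library that share a replicate number, whose deviations from the group means moved together. In such bulk RNA, fewer cells of a type and less RNA per cell cannot be told apart.

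Per kilobase of exon, Tmem173 had the highest mean of the members in every group, at a mean of 26.7 CPM per kb in S6K1 WT EV and 26.9 CPM per kb in S6K1/S6K2 WT EV cells. Tbk1 and Irf3 followed, at 15.1 and 13.1 CPM per kb in S6K1 WT EV cells and at 14.2 and 16.1 in S6K1/S6K2 WT EV cells. Samhd1 stood at 7.99 and 7.53 CPM per kb in these groups, and Ikbke at 3.11 and 2.75. Ifi203, Ifi205 and Aim2 were lowest, at 2.04, 1.02 and 0.890 CPM per kb in S6K1 WT EV cells, and each overlapped its neighbour in this order. Ifi204 had no fixed place. It stood second in S6K1 WT RAS cells, at 26.8 ± 18.9 CPM per kb (SD, n = 3) and overlapping Tmem173, and sixth in DKO RAS cells, at 2.18 ± 0.78. The length used was all annotated exon bases of a gene, 9154 for Samhd1, 9018 for Ikbke and 6706 for Ifi203. Their longest coding transcripts have 3926, 3251 and 3754 bases, whereas for Tmem173 and Tbk1 both lengths are equal. By transcript length Samhd1, Ikbke and Ifi203 would have higher values, so the order depends on the length used.

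The signalling core varied little and the interferon-inducible members varied much. From the lowest to the highest of the 18 libraries, Irf3 spanned 37.7 to 54.1 CPM, Tbk1 34.4 to 53.8 CPM and Tmem173 54.4 to 92.0 CPM, ratios of 1.44, 1.56 and 1.69. Samhd1 and Ikbke spanned ratios of 2.47 and 2.15, Aim2 13.7, Ifi203 29.0 and Ifi204 30.8. Ifi205 ran from 0 to 8.62 CPM. The 2 series were scaled separately, so these ranges describe the libraries and test nothing between series.

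**Figure D2:**
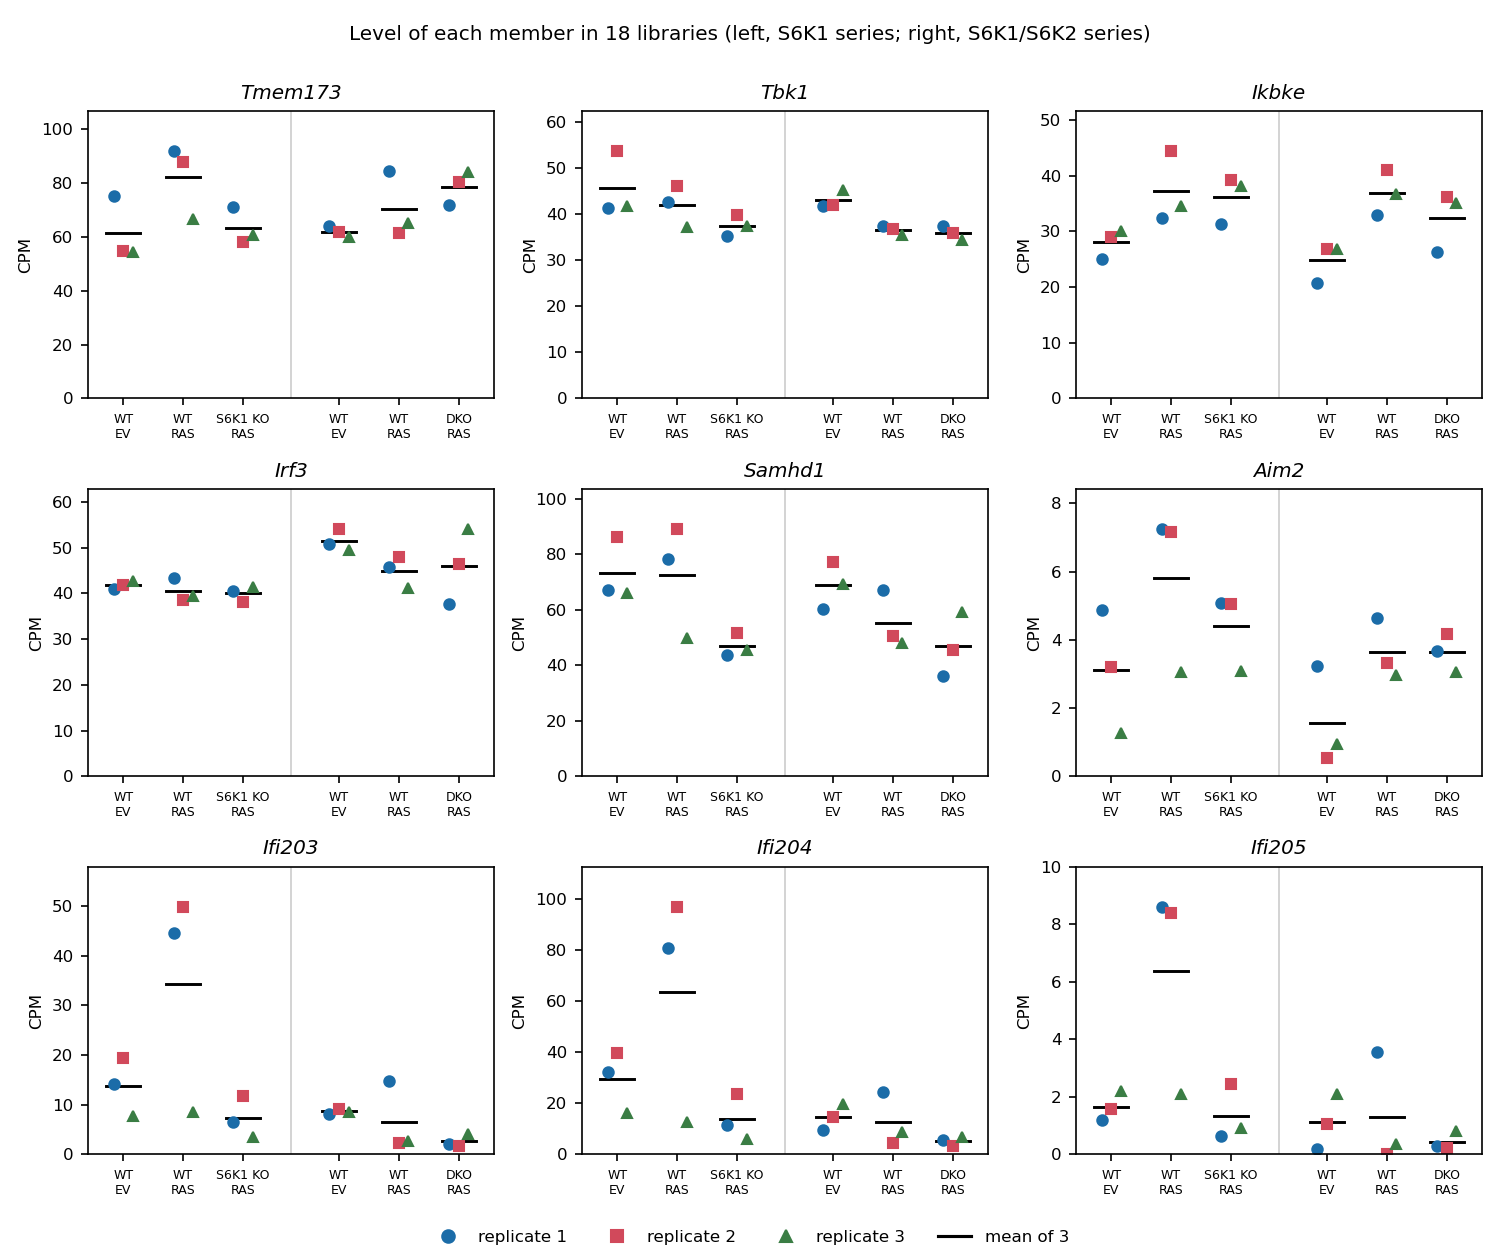
CPM of the 9 members with reads in each of the 18 libraries (1 panel per gene, y axis from 0, symbols for replicate numbers, bars for the mean of 3). Tmem173, Tbk1 and Irf3 stay within a ratio of 1.69 over all libraries, whereas Ifi203, Ifi204 and Ifi205 are high in S6K1 WT RAS libraries 1 and 2 and low in library 3.

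Trex1, the main DNA exonuclease of the cytosol, was listed at 0 counts in all 18 libraries, where 3 counts would be 0.208 to 0.361 CPM. In the GENCODE vM1 annotation all 1314 exon bases of Trex1 lie inside exons of Atrip on the same strand. Under that annotation a read from Trex1 cannot be assigned to it alone. The annotation behind the counts was not settled, and whether the overlap gave the zeros was not tested. The zeros are therefore not read as a level of Trex1. Atrip itself was at means of 11.8 to 13.8 CPM and passed no test. Both Ifi204 and Ifi205 share sequence with a relative. Of the 50-base stretches of their longest coding transcript, 71.1% in Ifi204 and 50.5% in Ifi205 occur in no other gene, and Mnda shares most of the rest, so their values may hold some reads of Mnda or lack some of their own. For the other 7 members with reads the share was at least 97.3%.

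Ikbke, the gene of the TBK1-related kinase IKKε, rose with RAS in the S6K1/S6K2 series. Its level was 20.7, 26.8 and 26.8 CPM with EV and 33.0, 41.0 and 36.7 CPM with RAS, and the groups did not overlap. The log2 fold change was 0.57 ± 0.17 (edgeR adjusted p = 0.0309), and Ikbke was the only one of 9 members called, where 26.3% of all 13881 genes tested were called. This call was narrow. It was lost on leaving out EV library 1 (adjusted p = 0.0796), EV library 2 (0.0559), RAS library 2 (0.104) or RAS library 3 (0.0821), with the fold change between 0.46 and 0.65 over the 6 such fits. With the line as a block the adjusted p was 0.00832, again for Ikbke alone of the members, against 28.7% of all genes. That block also took in the same-numbered DKO library, whose cells came from a separate mating.

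In the S6K1 series Ikbke was at 25.1, 29.0 and 30.1 CPM with EV and at 32.4, 44.5 and 34.6 CPM with RAS, again without overlap. Its log2 fold change of 0.41 ± 0.16 did not pass over all genes (adjusted p = 0.132) and passed with the block (0.40 ± 0.10, adjusted p = 0.0105). The RAS to EV ratio of Ikbke was above 1 in all 6 lines, from 1.15 to 1.59, and the difference between the series was 0.15 ± 0.23 (adjusted p = 0.782). Ikbke was higher in lines with few and with many macrophage markers.

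Tmem173, encoding STING, was at 75.1, 54.7 and 54.4 CPM with EV and 92.0, 87.8 and 66.5 CPM with RAS in the S6K1 series. All 3 lines were higher with RAS, while the groups overlapped through EV library 1. The log2 fold change was 0.42 ± 0.17 (adjusted p = 0.161), and 0.42 ± 0.10 with the block (adjusted p = 0.00983). In the S6K1/S6K2 series the levels were 63.9, 61.8 and 60.1 CPM with EV and 84.4, 61.4 and 65.3 CPM with RAS, a log2 fold change of 0.18 ± 0.14 (adjusted p = 0.34). Here library 1 alone stood clearly above its EV partner.

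Tbk1 and Irf3, the kinase and its transcription factor, did not pass in either series. Tbk1 was at 41.4, 53.8 and 41.8 CPM with EV and 42.7, 46.2 and 37.3 CPM with RAS in the S6K1 series, and at 41.8, 42.1 and 45.2 against 37.4, 36.9 and 35.6 CPM in the S6K1/S6K2 series. The groups overlapped in the first series and not in the second, where the log2 fold change was -0.23 ± 0.10 (adjusted p = 0.111). Irf3 was at 50.7, 54.1 and 49.4 CPM with EV and 45.7, 47.9 and 41.1 CPM with RAS in the S6K1/S6K2 series (-0.20 ± 0.14, adjusted p = 0.331), and it differed by -0.05 ± 0.10 in the S6K1 series.

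No member passed the edgeR test for RAS in the S6K1 series over group means, where 13.2% of 14036 genes were called. At an unadjusted p under 0.05 there were 3 members, Ikbke, Tmem173 and Ifi205, against 26.4% of all genes, and DESeq2 called 1, Ifi205, against 2467 of 14036 genes. With the line as a block 6 of the 9 members were higher, Ikbke, Tmem173, Aim2, Ifi203, Ifi204 and Ifi205, and none lower, where 36.2% of all genes were called in either direction.

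The RAS response of the interferon-inducible members differed by line. Ifi204, the mouse gene most often compared with human IFI16, was at 32.3, 39.5 and 16.1 CPM with EV and at 80.8, 96.9 and 12.6 CPM with RAS in the S6K1 series. Lines 1 and 2 were 2.50 and 2.45 times as high with RAS, and line 3 was 0.782 times as high. Ifi203 showed 14.1, 19.3 and 7.70 CPM with EV and 44.6, 49.9 and 8.43 CPM with RAS, with ratios of 3.16 and 2.59 in lines 1 and 2 and of 1.096 in line 3. Ifi205 showed 1.18, 1.56 and 2.20 CPM with EV and 8.62, 8.41 and 2.09 CPM with RAS. Lines 1 and 2 were thus high with RAS for all 3 genes, and line 3 stayed near its EV level. The log2 fold changes were 1.11 ± 0.69 for Ifi204, 1.32 ± 0.63 for Ifi203 and 1.96 ± 0.61 for Ifi205 (adjusted p = 0.356, 0.224 and 0.0672), and with the block 0.89 ± 0.28, 1.19 ± 0.24 and 1.88 ± 0.49 (adjusted p = 0.0332, 0.00416 and 0.0147). Leaving out RAS library 3 alone gave adjusted p values of 0.0345 for Ifi203 and 0.0132 for Ifi205. It was the only 1 of the 6 fits without a single library that called either gene. In the others the adjusted p reached 0.496 and 0.196. In a fit added after the data were seen, which left out both libraries of line 3, Ifi205 alone passed (2.62 ± 0.52, adjusted p = 0.0187). There 9.99% of all genes were called. Line 3 was the line that stayed near its EV level, so neither this fit nor the 1 without RAS library 3 is a separate test of the response.

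In the S6K1/S6K2 series the same genes went both ways. Ifi204 was at 9.61, 14.4 and 19.7 CPM with EV and at 24.5, 4.53 and 8.52 CPM with RAS, so line 1 was 2.55 times as high and lines 2 and 3 were 0.314 and 0.433 times as high. Ifi203 was at 8.21, 9.20 and 8.57 CPM with EV and at 14.7, 2.26 and 2.69 CPM with RAS, with ratios of 1.79, 0.246 and 0.314. Ifi205 went from 2 to 33 counts in line 1, from 12 to 0 in line 2 and from 24 to 4 in line 3, and a count of 0 in that library allows up to 0.361 CPM. Line 1 was higher and lines 2 and 3 lower with RAS for each of the 3 genes. Over group means the log2 fold changes were -0.22 ± 0.54 for Ifi204, -0.40 ± 0.63 for Ifi203 and 0.24 ± 1.13 for Ifi205 (adjusted p = 0.797, 0.667 and 0.898). In a fit added after these values were seen, which left out both libraries of line 1, Ifi203 fell by 1.84 ± 0.43 and Ifi204 by 1.37 ± 0.40 (adjusted p = 0.0189 and 0.0418), where 21.3% of all genes were called. Leaving out RAS library 1 alone, Ifi203 was at -1.80 (adjusted p = 0.0171), the only 1 of the 6 fits without a single library that called it. Line 1 was the line in which these genes were higher with RAS, so neither fit is a separate test of a fall. In the fit without line 1 Ifi205 was at -2.88 ± 0.98 (adjusted p = 0.0632) and the call for Ikbke was lost (0.53 ± 0.18, adjusted p = 0.0628).

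The 3 lines with the highest macrophage marker sums, at 1541 to 3487 CPM with EV, were those in which Ifi203 and Ifi204 were at least 1.79 times as high with RAS. Line 3 of the S6K1 series, at 704 CPM, showed ratios of 1.096 and 0.782, and the 2 lines at 168 and 221 CPM showed ratios of 0.246 to 0.433. The macrophage sum itself differed less between EV and RAS, by log2 ratios from -0.50 to 0.42 over the 6 lines. The part of these cells in the RAS response of Ifi203, Ifi204 and Ifi205 was not tested.

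**Figure D3:**
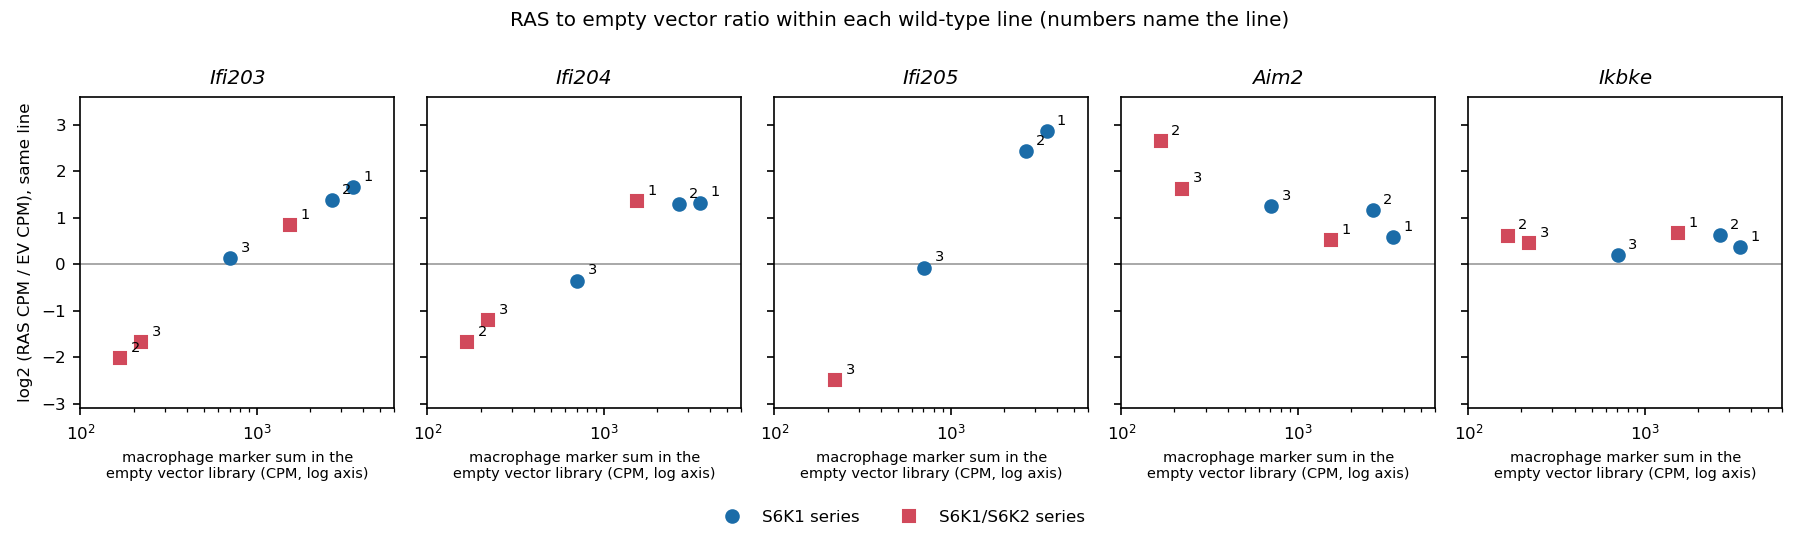
Log2 ratio of RAS to EV CPM in each WT line (y axis) against the sum of 18 macrophage markers in the EV library of that line (x axis, CPM, log axis), for 5 members and coloured by series. Ifi203 and Ifi204 are at least 1.79 times as high with RAS in the 3 lines with the highest marker sums and at most 0.433 times as high in the 2 lowest, whereas Ikbke and Aim2 lie above 0 in all 6 lines. Ifi205 is drawn for 4 lines, those with over 3 counts in both libraries.

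Aim2, the inflammasome sensor of DNA, was higher with RAS in all 6 lines. It was at 4.87, 3.20 and 1.28 CPM with EV and 7.26, 7.16 and 3.05 CPM with RAS in the S6K1 series, and at 3.23, 0.530 and 0.962 against 4.65, 3.33 and 2.97 CPM in the S6K1/S6K2 series. Within each line RAS was higher by 1.44 to 6.29 times, and the largest ratio rested on 6 EV counts. The groups overlapped through EV libraries 1 and 2 of the first series and EV library 1 of the second, and the log2 fold changes of 0.88 ± 0.48 and 1.20 ± 0.56 did not pass (adjusted p = 0.285 and 0.134). With the block Aim2 passed in the S6K1 series (0.91 ± 0.23, adjusted p = 0.0111) and not in the S6K1/S6K2 series (1.35 ± 0.49, adjusted p = 0.0705). Leaving out single libraries of the S6K1/S6K2 series gave 0.80 to 2.27 over 6 fits, with adjusted p from 0.0056 to 0.298 and 1 call. That call came without EV library 1 (2.27 ± 0.42). Leaving out both libraries of line 1, a fit added after the data were seen, gave 2.05 ± 0.43 (adjusted p = 0.0116). Both fits dropped the EV library through which the groups overlapped, so neither is a separate test of the rise. Unlike Ifi203 and Ifi204, Aim2 was thus higher also in the 2 lines with the fewest macrophage markers, a contrast given here as values without a test between genes.

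Samhd1, the dNTP hydrolase, was at 67.0, 86.3 and 66.1 CPM with EV and 78.3, 89.2 and 49.9 CPM with RAS in the S6K1 series, and at 60.2, 77.2 and 69.5 against 67.2, 50.6 and 48.0 CPM in the S6K1/S6K2 series. The groups overlapped in both. Its log2 fold changes were -0.01 ± 0.21 and -0.32 ± 0.20 (adjusted p = 0.977 and 0.258). Line by line it was lower with RAS in line 3 of the first series and lines 2 and 3 of the second, the lines in which Ifi204 was lower.

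Loss of S6K1 under RAS left all 9 members at a log2 fold change below 0 and none called over group means, where 0.00712% of all genes, 1 gene, were called and 43.4% lay below 0. At an unadjusted p under 0.05 there were 4 members, Ifi203, Ifi204, Ifi205 and Samhd1, against 6.86% of all genes. DESeq2 called 0. With replicate number as a block the same 4 members fell, where 4.15% of all genes were called. The labels do not say that same-numbered KO and WT cells came from the same litter.

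Ifi203, Ifi204 and Ifi205 showed the largest differences. Against the WT RAS levels given above, KO RAS cells had 11.6, 23.5 and 5.92 CPM of Ifi204, 6.55, 11.8 and 3.50 CPM of Ifi203 and 0.637, 2.45 and 0.917 CPM of Ifi205. Each KO library was below the WT RAS library of the same number. Ifi204 was lower by 2.13 to 6.99 times and Ifi203 by 2.41 to 6.82 times, with the smallest difference at number 3. The groups still overlapped, because WT RAS library 3 was low. The log2 fold changes were -2.21 ± 0.73, -2.23 ± 0.66 and -2.23 ± 0.62 over group means (each at an adjusted p = 0.587), and with the block these genes fell by 2.09 ± 0.30, 2.14 ± 0.26 and 2.19 ± 0.51 (adjusted p = 0.00311, 0.00103 and 0.0435). Samhd1 was at 43.8, 51.7 and 45.5 CPM in KO RAS cells and fell by 0.60 ± 0.13 with the block (adjusted p = 0.0352), against -0.62 ± 0.21 over group means (adjusted p = 0.587). In the same contrast all 18 macrophage markers were below 0, with a median of -2.22, close to the values of the 3 Ifi genes, and 17 of the 18 were called with the block. All 6 defining macrophage markers had reads in every KO library, with a sum of 35.3 to 154 CPM against 123 to 727 CPM in WT RAS. Their part in the lower Ifi and Samhd1 levels was not tested.

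The other 5 members had log2 fold changes nearer to 0 in KO RAS cells, from -0.40 to -0.02. Tmem173 was at 71.1, 58.2 and 60.7 CPM, each below the WT RAS library of the same number (-0.38 ± 0.17, adjusted p = 0.768, and 0.0827 with the block). Ikbke was at 31.4, 39.3 and 38.1 CPM (-0.04 ± 0.16), Tbk1 at 35.3, 39.9 and 37.5 CPM (-0.16 ± 0.14), and Irf3 at 40.5, 38.1 and 41.5 CPM (-0.02 ± 0.10). Aim2 was at 5.09, 5.06 and 3.08 CPM (-0.40 ± 0.47). None of these 5 passed with or without the block, and each group overlapped WT RAS.

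Loss of both kinases called 0 of 9 members, where 0.0216% of all genes, 3 genes, were called. At an unadjusted p under 0.05 there was 1 member, Ifi204, against 1.29% of all genes, and DESeq2 called 0. DKO RAS cells had 5.55, 3.14 and 6.77 CPM of Ifi204 (-1.28 ± 0.57), 1.98, 1.72 and 4.15 CPM of Ifi203 (-1.31 ± 0.67), and 0.297, 0.203 and 0.812 CPM of Ifi205 (-1.53 ± 1.26), each at an adjusted p of at least 0.999. The differences rested on WT RAS library 1. Without that library the log2 fold change was -0.35 for Ifi204, 0.08 for Ifi203 and 1.09 for Ifi205. Of 17 macrophage markers tested all were below 0, with a median of -1.98, and their part was not tested.

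The other members of DKO RAS cells stayed near the WT RAS levels. Tmem173 was at 71.8, 80.3 and 84.1 CPM (0.16 ± 0.14), Ikbke at 26.3, 36.1 and 35.01 CPM (-0.18 ± 0.17), Tbk1 at 37.5, 36.0 and 34.4 CPM (-0.03 ± 0.10), and Irf3 at 37.7, 46.4 and 54.1 CPM (0.04 ± 0.14). Samhd1 was at 36.2, 45.4 and 59.4 CPM (-0.23 ± 0.20) and Aim2 at 3.67, 4.16 and 3.07 CPM (-0.01 ± 0.53). For all 6 genes the groups overlapped.

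**Figure D4:**
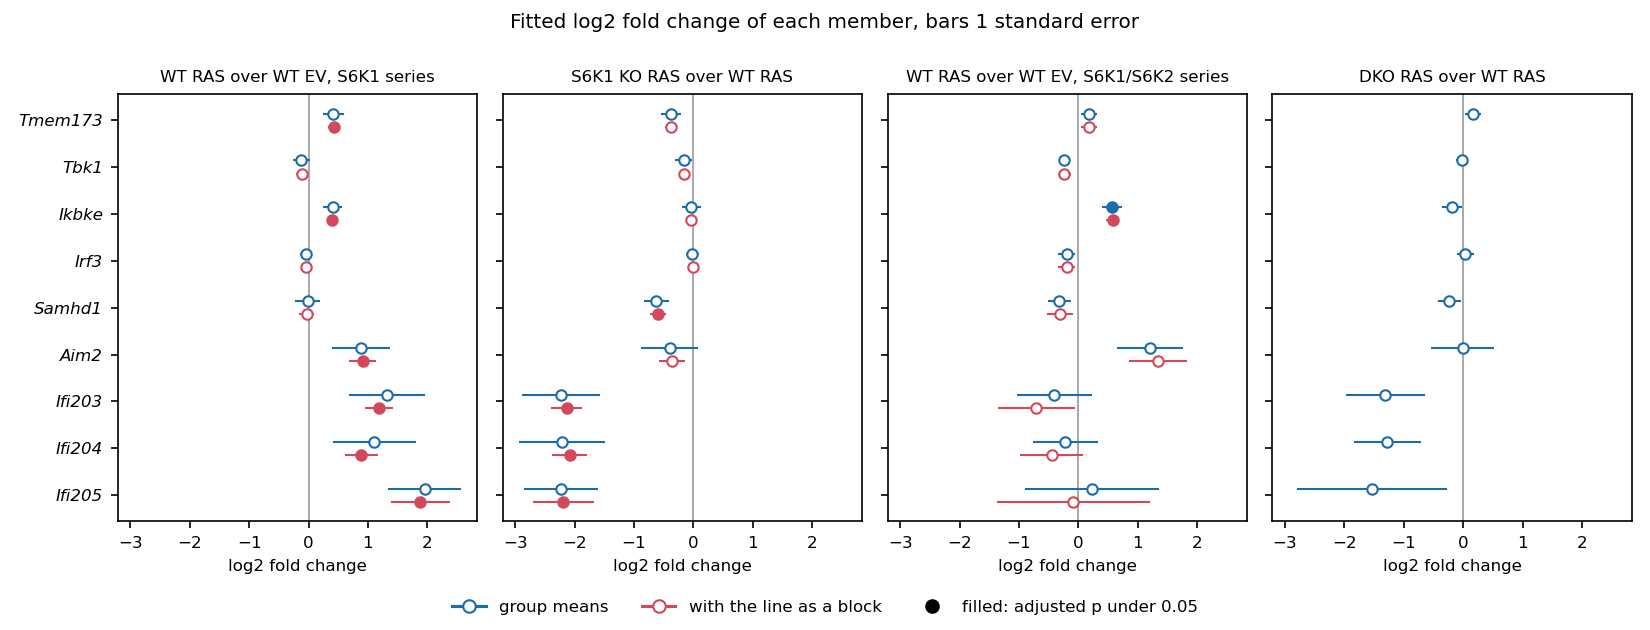
Fitted log2 fold change of each member (x axis, bars 1 SE) in the 4 comparisons. Blue is over group means and red is with the replicate number as a block. Red is not drawn for DKO, because DKO and WT cells came from separate matings. Filled points have an adjusted p under 0.05. Over group means Ikbke under RAS in the S6K1/S6K2 series is the single filled point, and with the block 6 members are filled under RAS and 4 under S6K1 loss in the S6K1 series.

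The effects were compared between the series in a fit of all 18 libraries. For RAS 0 of 9 members and 0 of 14483 genes (0%) passed. At an unadjusted p under 0.05 there were 0 members, against 12.6% of all genes, and DESeq2 called 0 members. The largest gaps were those of Ifi203 (S6K1/S6K2 minus S6K1 series, -1.75 ± 0.97, adjusted p = 0.457) and Ifi205 (-1.75 ± 1.35, adjusted p = 0.575). For the loss of the kinases 0 members passed, where 0.0069% of all genes, 1 gene, were called. There 1 member, Tmem173, was at an unadjusted p under 0.05 (0.57 ± 0.23, adjusted p above 0.999), against 1.23% of all genes. DESeq2 called 0 members. No member was therefore shown to differ between the series, and the loss of S6K2 cannot be told apart from the different source of the cells.

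Around the members, 89 further genes of the pathway were read in 8 lists. Under RAS 4 of 83 tested rose and none fell in the S6K1 series, or 4.82% against 13.2% of all genes. They were Pyhin1, a PYHIN gene (2.98 ± 0.84), Rnaseh2a, the catalytic subunit of RNase H2 (0.71 ± 0.20), Xrcc5, encoding the DNA end-binding protein Ku80 (0.52 ± 0.11), and Azi2, an adaptor of TBK1 and IKKε (0.45 ± 0.11). With the block 20 rose and 6 fell, or 31.3% against 36.2% of all genes. In the S6K1/S6K2 series 6 of 81 rose and 8 fell, or 17.3% against 26.3% of all genes. Pyhin1 (4.43 ± 0.98), Rnaseh2a (0.67 ± 0.16) and Azi2 (0.58 ± 0.13) were again higher, with Nlrc3, a negative regulator of STING (0.99 ± 0.32), and Lrrfip1, a nucleic acid sensor (0.74 ± 0.18). Pyhin1 was at 0 to 2 counts in the EV libraries of this series and at 10 to 39 with RAS, so its fold is imprecise. Among those that fell were Irf1 (-1.31 ± 0.22) and Irf9 (-1.07 ± 0.27), transcription factors of the interferon response, and Smpdl3a (-0.97 ± 0.19).

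Cgas itself, listed under its older name in the table, was at a mean of 8.60 CPM in S6K1 WT EV, 7.75 in WT RAS and 4.57 in KO RAS cells, and its log2 fold change for S6K1 loss was -0.76 ± 0.23 (adjusted p = 0.587, and 0.0722 with the block). Zbp1, a sensor of Z-form nucleic acid, was at 7.11, 20.3 and 3.70 CPM in these groups (-2.44 ± 0.76 for S6K1 loss, adjusted p = 0.587, and 0.00303 with the block). Ifnb1, the interferon gene at the end of the pathway, had at most 0.311 CPM in any WT RAS library of the S6K1 series and was listed at 0 in all libraries of the S6K1/S6K2 series.

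The list of IRF3 and interferon output genes was followed as the downstream readout. Under RAS in the S6K1 series all 11 tested were above 0 (median 1.71, all genes 0.00), with 0 called over group means, 5 at an unadjusted p under 0.05 and 7 called with the block, where the shares of all genes were 13.2%, 26.4% and 36.2%. Isg15 was at 78.9, 108 and 47.9 CPM with EV and 257, 260 and 27.9 CPM with RAS, and Cxcl10 at 10.5, 11.5 and 1.37 against 57.1, 54.1 and 4.42 CPM. Isg15 was thus higher with RAS in lines 1 and 2 and lower in line 3, as Ifi204 was, whereas Cxcl10 was higher in all 3. In the S6K1/S6K2 series 9 of 10 tested were below 0 (median -0.80). Of these genes 0 were called and 0 were at an unadjusted p under 0.05, against 26.3% and 39.8% of all genes. Isg15 there was at 42.4, 94.2 and 59.1 CPM with EV and at 79.2, 8.69 and 6.76 CPM with RAS.

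Loss of S6K1 left all 11 tested below 0, with a median of -2.16 where the median of all genes was 0.03. None was called over group means, 8 were at an unadjusted p under 0.05 and 11 were called with the block, where the last 2 shares of all genes were 6.86% and 4.15%. Isg15 was at 24.9, 82.0 and 8.25 CPM in KO RAS cells, and Ccl5 at a mean of 0.556 CPM against 1.57 in WT RAS. In DKO RAS cells all 10 tested were below 0 (median -2.54), 9 at an unadjusted p under 0.05 and none called. These shares of all genes were 1.29% and 0.0216% for DKO. With the replicate number as a block 3 of the 10 were at an unadjusted p under 0.05 (median -2.11), against 2.28% of all genes, and none was called. Isg15 in the WT RAS cells of that series was high in library 1 alone, as given above. The part of that library in the DKO differences of this list was not tested. Here too all 18 macrophage markers tested for S6K1 loss and all 17 tested for DKO were below 0, and their part was not tested. Over the 8 lists none of the 83 genes was called for S6K1 loss over group means and 34 fell with the block, or 41% against 4.15% of all genes. DESeq2 called 1 of the 83. For the loss of both kinases 0 of 81 were called, by edgeR and by DESeq2.

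The partners of AIM2 were low and were lowest in line 3. Pycard, the inflammasome adaptor ASC, was at 8.71, 5.22 and 1.85 CPM in WT RAS and at 2.09, 1.38 and 0.917 CPM in KO RAS libraries of the S6K1 series (-1.84 ± 0.63, adjusted p = 0.587, and 0.00192 with the block). Casp1, the protease of the complex, was at 7.43, 6.54 and 0.803 CPM against 1.09, 0.843 and 0.417 CPM (-2.64 ± 0.85, adjusted p = 0.587, and 0.00121 with the block). In this contrast all 18 macrophage markers were below 0, with a median of -2.22, and their part was not tested. The cytosolic RNA sensors, a neighbouring pathway with the same output, gave 0 of 7 called for RAS in either series over group means. There 13.2% and 26.3% of all genes were called. At an unadjusted p under 0.05 there were 0 and 3, against 26.4% and 39.8% of all genes. With the block 2 rose with RAS and 5 fell with S6K1 loss in the S6K1 series, where 36.2% and 4.15% of all genes were called.

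For each member the 3 genes with the most similar profile over the 18 libraries were taken, by the root mean square (RMS) difference of centred log2 CPM among 14483 genes. Ifi203 lay closest to Irf7, the interferon-induced transcription factor (0.31), then Bst2 and Gbp2. Ifi204 lay closest to Mnda (0.26), then Ifih1 and Irf7, and Ifi205 to Mnda (0.87), then Irgm1 and Irf7. Mnda shares sequence with both, as given above. The closest gene to Aim2 was Apobr (0.31), then Adam8 and Cndp2, and for Samhd1 it was Parp11 (0.17), then Dck and Cgas. Ikbke lay closest to Dnaja4 (0.13), Tmem173 to Dhrs1 (0.13), Tbk1 to Csrp2bp (0.10) and Irf3 to Fastk (0.09), where the members' own SD was 0.28, 0.24, 0.17 and 0.15.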

How the data were processed

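Polyadenylated RNA was sequenced as stranded single-end libraries. The authors deposited raw counts per gene for all 18 libraries in 1 table. The study's methods name TopHat, HTSeq and mm9, whereas the submitters' processing notes list CASAVA, STAR 2.7.1a, DESeq2 1.28.1 and mm10. The sources differ and the aligner behind the table was not settled, so counts were used without coordinates. Promoter windows and positions are from RefSeq GRCm38.p6, and exon overlap, exon length and 50-base uniqueness from GENCODE vM1 (NCBIM37).

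Counts were tested with edgeR 4.0.16 (R 4.3.3) by the quasi-likelihood test with TMM scaling, filterByExpr at a minimum count of 10 and Benjamini-Hochberg adjustment over all genes tested, at 0.05. Each series was fitted alone with its 9 libraries, and the 18 libraries together for differences between series. CPM are counts per 1000000 counts of the TMM-scaled library, within a series. DESeq2 1.42.0, other scalings, other filters and leaving out single libraries were the alternatives. Symbols matched all 10 members by name.

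Same-numbered libraries deviated together, with correlations of deviations of 0.48 to 0.75 for EV and RAS and 0.44 to 0.75 for KO and WT in the S6K1 series, and of 0.28 to 0.37 for EV and RAS in the S6K1/S6K2 series, so the number was also used as a block. That block took in all libraries of a series, so in the S6K1/S6K2 series it also joined each DKO library to the same-numbered WT libraries. The p-values measure the spread between these libraries. The genes named were all members, a short set of pathway and control genes, pathway genes called in a comparison (at most 4 higher and 4 lower), and the 3 genes most like each member. A result that this rule would name is not reported here. The members and lists were chosen with earlier results of these data known. Limits from a count of 0 use 3 counts and cover counting error only.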

Additional observations from a re-analysis of the deposited data

How the results depend on the processing

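For RAS in the S6K1 series the count of members called, 0 over group means, was 1 with DESeq2, 1 without a filter on low counts, 1 without line 3, 6 with the replicate block and 0 to 2 on leaving out single libraries. For S6K1 loss the 0 became 1 without a filter (Ifi203) and 4 with the block. For RAS in the S6K1/S6K2 series the 1 was 3 without line 1 and 0 to 2 on leaving out single libraries. The counts for DKO and for both differences stayed at 0 under every alternative run, the block included, and the block changed no other member call. DKO and WT cells came from separate matings, so replicate numbers were not taken to pair them. The correlations of same-numbered DKO and WT libraries, 0.26, 0.49 and -0.05, were mixed and did not settle this. Leaving out lines was chosen after the data were seen. Over all genes, calls for RAS in the S6K1 series went from 1859 to 5085 with the block and to 1043 to 1818 on leaving out single libraries. Those for S6K1 loss went from 1 to 63 with DESeq2, 108 without a filter, 583 with the block, 4 with all libraries fitted and 0 to 22 on leaving out single libraries. Those for RAS in the S6K1/S6K2 series were 3646 and 2050 to 4199 on leaving out single libraries, and those for DKO were 3, against 10 with DESeq2, 11 without a filter and 8 with the block. The following signs changed, all of log2 values not called over group means with every library in. For RAS in the S6K1 series Samhd1 was 0.0070 with all 18 libraries fitted and 0.13 without line 3, and -0.18 to 0.20 on leaving out single libraries, where Tbk1 was -0.20 to 0.021. For RAS in the S6K1/S6K2 series Ifi205 was -0.082 with the block and -2.88 without line 1, and on leaving out single libraries -2.39 to 1.08, with Ifi204 at -1.15 to 0.18 and Ifi203 at -1.80 to 0.00037. For DKO, Aim2 was 0.013 without a filter and 0.046 with the block. On leaving out single libraries, S6K1 loss gave -0.12 to 0.10 for Ikbke and -0.058 to 0.038 for Irf3. DKO gave -0.14 to 0.21 for Aim2, -1.81 to 0.085 for Ifi203, -2.33 to 1.09 for Ifi205, -0.095 to 0.16 for Irf3 and -0.057 to 0.0045 for Tbk1. The difference in RAS gave -0.17 to 1.37 for Aim2, and the difference in loss -0.056 to 3.36 for Ifi205 and -0.046 to 0.19 for Irf3. The cause of these changes was not tested. Depth limits Aim2 and Ifi205, whose lowest libraries held 6 and 0 counts.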
